A study of Mus musculus with 6 samples.

Results

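NEGR1 (neuronal growth regulator 1) is an adhesion protein of the IgLON family, tethered by a lipid anchor to the outer face of neuronal membranes, and it has no intracellular part of its own. It has been reported to act through partners: the neural cell adhesion molecule NCAM1 and the fibroblast growth factor (FGF) receptor FGFR2, which can carry a signal into the cell, and the membrane protease ADAM10, which cuts NEGR1 from the cell surface. The 6 genes described here, Ncam1, Ncam2, L1cam, Fgfr1, Fgfr2 and Adam10, are these partners and their relatives, taken by name from reports on NEGR1, with earlier results of these data known. All 6 were found among the 56941 gene identifiers of the count table, and all 6 were among the 19354 genes with enough counts to be tested.

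Poly(A) RNA was sequenced from the ventral hippocampus of 6 mice, 3 with the genotype label NEGR1_overexpression and 3 with the genotype label NEGR1_control. The study asked about NEGR1 in working memory and in behaviour related to anxiety and depression. The sources used here do not give the strain, sex and age of the mice, the vector or promoter meant to raise NEGR1, the cells it acted in, or the time of sampling. Values are in counts-per-million units (CPM) after TMM scaling, which corrects each library for its size and composition, given as mean ± SD over the mice of a group (n = 3), and a fold above 1 means a higher value in the overexpression libraries. Groups are called by their labels throughout.

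NCAM proteins join neighbouring cells through immunoglobulin domains and, on stimulation, engage FGF receptors and the kinase FYN. L1CAM, the founding member of a second immunoglobulin family, guides axons and binds ankyrin at the membrane skeleton. FGF receptors are tyrosine kinases that feed the RAS and ERK cascade, and ADAM10 is a sheddase that also cuts NCAM1, L1CAM, Notch and the amyloid precursor protein. These counts are per gene: splice forms (the NCAM1 isoforms, the FGF receptor variants), polysialic acid on NCAM, and cut against uncut protein are not resolved.

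Libraries held 30726110 to 38108394 counts, and each of the 6 genes rested on 1410 to 11341 counts per library. Neuronal markers were detected in every library, with 0 of 8 at a count of 0, and Snap25 and Syt1 leading the list per length. Negr1 itself (ENSMUSG00000040037) stood at 185, 199 and 195 CPM in overexpression replicates 1 to 3 and at 181, 168 and 180 CPM in control replicates 1 to 3. That is a fold of 1.09 with a 95% interval of 1.01 to 1.19, which did not pass (edgeR adjusted p = 0.488). Whether reads of the construct meant to raise NEGR1 are counted under the mouse gene is not known from the sources used here, which limits every value set against Negr1 below. Overexpression replicate 1 stood apart by choroid plexus RNA: its 8 choroid plexus markers summed to 2366 TPM (the transcripts-per-million unit, which corrects for gene length), against 24.7 to 157 in the other 5 libraries.

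Per transcript length, Ncam1 was the most abundant of the 6 and Fgfr2 the least. In TPM, with lengths taken as the merged exons of a gene, Ncam1 (ENSMUSG00000039542) lay between 143 and 151 over the 6 libraries. L1cam (ENSMUSG00000031391) lay between 92.9 and 114.5 and Adam10 (ENSMUSG00000054693) between 86.1 and 98.5, so these neighbours overlapped. Fgfr1 (ENSMUSG00000031565) followed at 52.5 to 63.6 TPM, apart from the genes on either side. Ncam2 (ENSMUSG00000022762), at 21.7 to 36.5 TPM, overlapped with Fgfr2 (ENSMUSG00000030849), at 15.9 to 22.8 TPM. Among all genes tested these mean levels were at the 91.9th percentile for Ncam1, the 79.8th for Fgfr1 and the 54.9th for Fgfr2. The order of Adam10 and Fgfr1 depended on the length used: with the longest coding transcript, an alternative added after the data were seen, their means were 77.5 and 88.9 TPM. That length also raised the mean of Fgfr2 from 18.7 to 35.3 TPM, of Fgfr1 from 57.5 to 88.9 TPM and of Ncam2 from 30.9 to 45.3 TPM, and the percentiles hold for merged exons only.

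**Figure D1:**
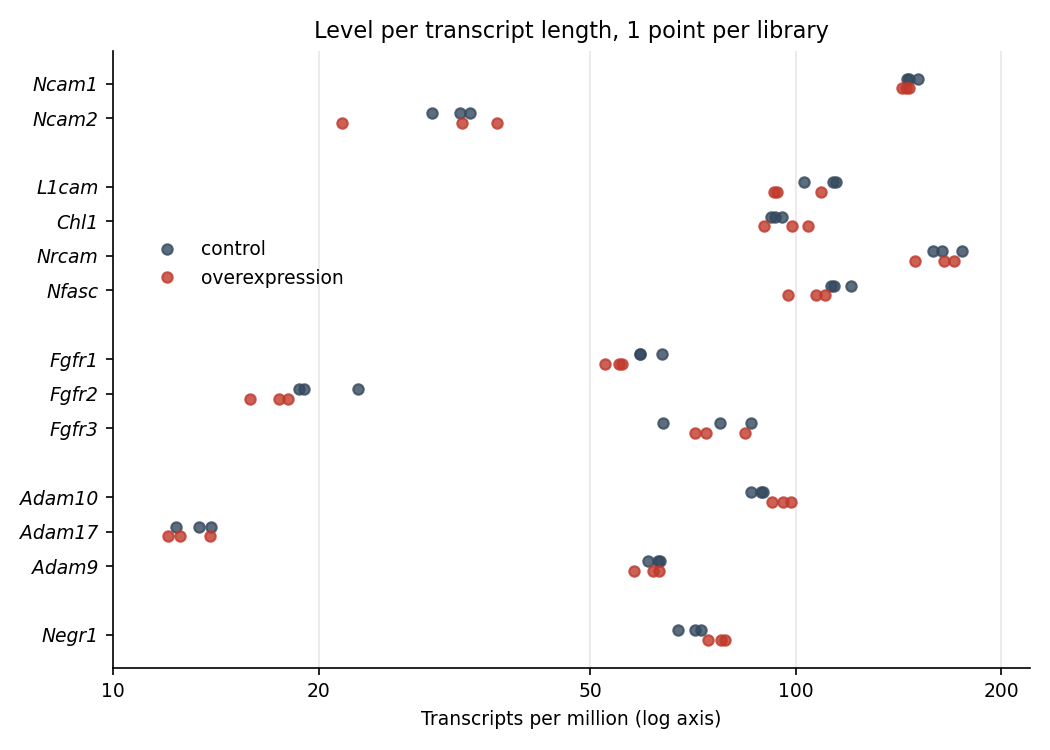
Level per transcript length (TPM, log axis) of the 6 genes, their family members and Negr1, with 1 point per library in each group. Ncam1 lies between 143 and 151 TPM and Fgfr2 between 15.9 and 22.8 TPM.

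Shares of a family's transcripts were computed for 5 of the 6 genes, all but Adam10, and the groups overlapped for each of these 5. Ncam1 made up 82.8 ± 3.78% of the TPM of both NCAM genes in overexpression and 82.4 ± 1.204% in control libraries, and the share of Ncam2 ran from 13.0 to 20.4% over the 6. Of the 3 FGF receptors tested, Fgfr3, a receptor of astrocytes, had the largest mean share at 51.6 ± 1.93% against 48.3 ± 5.16%. Fgfr1 followed with 36.8 ± 1.52% against 38.8 ± 3.18%, and Fgfr2 with 11.6 ± 0.538% against 12.96 ± 1.99%. Shares depended on the length used. With the longest coding transcript, the mean over the 6 libraries was 44.9% for Fgfr3, 39.4% for Fgfr1 and 15.65% for Fgfr2. Fgfr4 had too few counts to be tested, with 1 to 8 per library. L1cam held 21.3 ± 1.55% against 22.7 ± 1.30% of the L1 family's transcripts, beside Nrcam, Chl1 and Nfasc. Chl1 had the larger share in overexpression, 21.1 ± 0.775% against 19.3 ± 0.181%, and Nfasc the smaller, 22.7 ± 0.144% against 23.8 ± 0.565%. The shares of these 2 relatives did not overlap between groups. A share also moves with the other genes of its family. The level of Chl1 itself overlapped between groups, at 286 ± 20.4 against 274 ± 6.93 CPM (edgeR adjusted p = 0.784).

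None of the 6 genes passed edgeR's quasi-likelihood test at an adjusted p of 0.05. In all, 9 of 19354 genes passed (0.0465%). Leaving out 1 library moved that count, to 63 when overexpression replicate 1 was dropped and to 5 when overexpression replicate 2 was. Dropping a control library gave 39 for replicate 1, 2 for replicate 2 and 3 for replicate 3. At an unadjusted p under 0.05 stood 4 of the 6 genes, Fgfr1, Fgfr2 and L1cam lower and Adam10 higher, where 9.24% of all genes tested, and 11.5% of those at 10 CPM or more, did so. With 1 library left out, this count was 1 (L1cam) without control replicate 2, and 2 (Fgfr1 and Fgfr2) without overexpression replicate 3, control replicate 1 or control replicate 3. With all 6 libraries kept, it was 3, without Adam10, by DESeq2 and with no filter on low counts. A block for the replicate number or a correction for GC content also gave 3, without Adam10. Both together gave 2 (L1cam and Fgfr2). The count stayed at 4 under the other scalings fitted, by limma-voom and at 1 CPM in 3 libraries. Groups did not overlap for 4 of the 6, Ncam1, Fgfr1 and Fgfr2 lower and Adam10 higher, against 15.1% of all genes tested and 17.9% of those at 10 CPM or more. The gap of Ncam1 closed under the other scalings tried, while those of Fgfr1, Fgfr2 and Adam10 were present under each. DESeq2's Wald test called 103 genes, and 0 of the 6 were among them. The median log2 fold change of the 6 was -0.11, against 0.0015 over all genes tested.

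**Figure D2:**
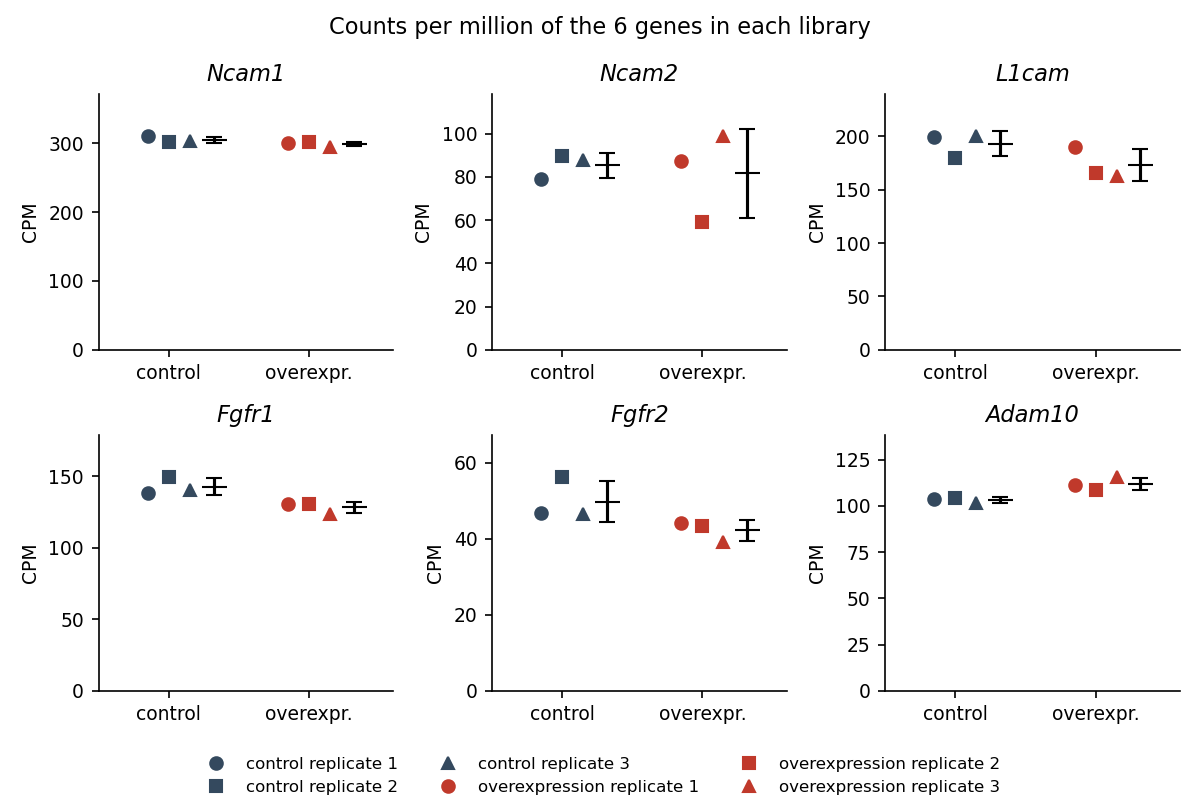
CPM of each of the 6 genes (vertical axis from 0) by group, with 1 marker per library and the mean ± SD at the right of each group. Fgfr1 and Fgfr2 are lower and Adam10 higher in all 3 overexpression libraries, and overexpression replicate 2 has the lowest Ncam2, at 58.9 CPM.

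Ncam1 was nearly level across the 6 mice. It stood at 301, 301 and 295 CPM in overexpression replicates 1 to 3 and at 310, 302 and 303 CPM in control replicates 1 to 3. The overexpression libraries lay just under the control libraries, and the highest and lowest libraries of all 6 differed 1.05-fold. The group means were 299 ± 3.43 against 305 ± 4.74 CPM, a fold of 0.981 with a 95% interval of 0.914 to 1.05 (edgeR adjusted p = 0.898). The interval leaves room for a change of -8.60 to 5.22%. The coefficient of variation between mice that edgeR estimated was 5.46% for Ncam1, and 0.40% of the tested genes at 10 CPM or more had a smaller one.

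Ncam2, the paralog best known from the olfactory system, was the most variable of the 6. It stood at 87.3, 58.9 and 98.8 CPM in overexpression replicates 1 to 3 and at 78.9, 89.7 and 87.7 CPM in control replicates 1 to 3. Overexpression replicate 2 was the lowest and overexpression replicate 3 the highest of the 6 libraries, so the groups overlapped. The means were 81.7 ± 20.5 against 85.4 ± 5.76 CPM, a fold of 0.956 with a 95% interval of 0.664 to 1.38 (edgeR adjusted p = 0.955). Without overexpression replicate 2 the log2 fold change turned from -0.065 to 0.12 (adjusted p = 0.619). The estimated coefficient of variation between mice was 17.4%, at the 98.9th percentile of genes at 10 CPM or more.

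L1cam was lower on average in the overexpression libraries, with groups that overlapped. It stood at 190.0, 165 and 163 CPM in overexpression replicates 1 to 3 and at 199.5, 180 and 200.1 CPM in control replicates 1 to 3. Overexpression replicate 1 lay above control replicate 2. The means were 173 ± 14.99 against 193 ± 11.7 CPM, a fold of 0.894 with a 95% interval of 0.809 to 0.989 (edgeR adjusted p = 0.489, unadjusted p = 0.0320). Without overexpression replicate 1, the library rich in choroid plexus RNA, the log2 fold change was -0.24 in place of -0.16 (adjusted p = 0.135). L1cam is a gene of neurons, and 7 of 8 neuronal markers were below a fold of 1, with a median log2 fold change of -0.042. Their summed level was 3592 to 3813 TPM in overexpression and 3763 to 4074 TPM in control libraries, and their part in the L1cam value was not tested. In bulk tissue, fewer cells of a type and less RNA per cell cannot be told apart.

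Fgfr1, the FGF receptor of hippocampal neurons, was lower in each overexpression library than in any control library. It stood at 130.5, 130.5 and 124 CPM in overexpression replicates 1 to 3 and at 138.5, 149 and 140.4 CPM in control replicates 1 to 3. The means were 128 ± 3.94 against 143 ± 5.77 CPM, a fold of 0.898 with a 95% interval of 0.829 to 0.974. The gene did not pass (edgeR adjusted p = 0.423, unadjusted p = 0.0128), and permuting the labels of the log2 CPM values, in an exact and two-sided test, gave p = 0.1, which 3 libraries against 3 cannot go below.

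Fgfr2, which oligodendrocytes and astrocytes carry, had the fold farthest from 1 of the 6 with all libraries in the fit. It stood at 44.2, 43.4 and 39.1 CPM in overexpression replicates 1 to 3 and at 46.6, 56.1 and 46.5 CPM in control replicates 1 to 3. The groups did not overlap, and control replicate 2 lay well above the other libraries. The means were 42.2 ± 2.73 against 49.8 ± 5.51 CPM, a fold of 0.848 with a 95% interval of 0.753 to 0.955 (edgeR adjusted p = 0.412, unadjusted p = 0.0102; exact permutation p = 0.1). Without control replicate 2 the log2 fold change was -0.14 in place of -0.24 (adjusted p = 0.668), smaller than that of L1cam in the same fit, -0.21, and without overexpression replicate 3 it was -0.18, smaller than that of Ncam2, -0.22.

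Oligodendrocytes are among the cells that carry Fgfr2. All 10 of 10 oligodendrocyte and myelin markers tested were below a fold of 1, with a median log2 fold change of -0.38. At an unadjusted p under 0.05 were 8 of them, against 9.24% of all genes tested, and 0 passed. Their summed level was 2115 to 2519 TPM in overexpression and 2629 to 3365 TPM in control libraries, highest in control replicate 2, and 0 of 10 were at a count of 0. The leading marker per length was Mbp, a structural protein of myelin, at 1492 ± 121 against 2030 ± 220 CPM. Astrocyte markers had 6 of 8 below 1 and a median of -0.053, at 3171 to 3517 against 3433 to 3717 TPM. Precursors of oligodendrocytes had 5 of 7 markers below 1 and a median of -0.022, at 183 to 207 against 203 to 206 TPM. The part of these cells in the Fgfr2 value was not tested. Of the other markers, 3 of 7 for microglia, 5 of 7 for endothelium, 1 of 6 for ependyma and 8 of 8 for choroid plexus were above 1, with medians of -0.0058, 0.021, -0.40 and 2.57.

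Adam10 was the only one of the 6 with a fold above 1. It stood at 111, 109 and 115 CPM in overexpression replicates 1 to 3 and at 104, 104 and 102 CPM in control replicates 1 to 3. Every overexpression library lay above every control library. The means were 112 ± 3.37 against 103 ± 1.43 CPM, a fold of 1.08 with a 95% interval of 1.003 to 1.17. The gene did not pass (edgeR adjusted p = 0.519, unadjusted p = 0.0427; exact permutation p = 0.1). After a correction for the GC content of transcripts its log2 fold change was 0.073 in place of 0.12 (adjusted p = 0.735). The transcripts of Adam10 hold 44.2% G and C, and those of Fgfr1 54.9%. The same correction moved the log2 fold change of Fgfr1 from -0.15 to -0.12 and that of L1cam from -0.16 to -0.13. Fgfr2 moved from -0.24 to -0.22 and Ncam1 from -0.028 to -0.022, while Ncam2 went the other way, from -0.065 to -0.15.

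Promoters are shown for Adam10 and Fgfr2, the genes with the highest and the lowest fold of the 6 when all libraries were used. RefSeq (build GRCm38.p6) listed a window of 250 bases before to 50 after the start for 4 of the 6. The Adam10 window is chr9:70678732-70679031 on the plus strand and the Fgfr2 window chr7:130266759-130267058 on the minus strand, each printed 5′ to 3′ along the gene. Capitals mark the GC box GGGCGG or its reverse complement CCGCCC, the sequence bound by SP1.
Adam10: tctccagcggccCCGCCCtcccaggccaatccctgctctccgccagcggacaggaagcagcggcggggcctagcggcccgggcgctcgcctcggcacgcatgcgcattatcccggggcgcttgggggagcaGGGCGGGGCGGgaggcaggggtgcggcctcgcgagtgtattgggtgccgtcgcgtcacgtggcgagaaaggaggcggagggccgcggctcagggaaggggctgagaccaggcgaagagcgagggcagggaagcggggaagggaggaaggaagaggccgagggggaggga
Fgfr2: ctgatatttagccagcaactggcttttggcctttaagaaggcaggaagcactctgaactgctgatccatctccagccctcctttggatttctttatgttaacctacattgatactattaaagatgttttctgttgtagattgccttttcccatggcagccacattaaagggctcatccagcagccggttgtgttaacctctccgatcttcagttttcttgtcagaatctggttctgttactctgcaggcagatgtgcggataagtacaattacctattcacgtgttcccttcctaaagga
The Adam10 window holds 3 GC boxes, of which 2 share 1 base, and the Fgfr2 window holds 0, while 35.7% of the 32851 RefSeq windows hold at least 1. A CCAAT box (CCAAT or ATTGG) occurs 2 times for Adam10 and 0 times for Fgfr2, against 37.4% of windows with at least 1, and neither window has TATAAA or TTTATA, which 13.6% hold. G and C make up 73.3% of the Adam10 window and 43.7% of the Fgfr2 window, where the median over all windows is 52.7%. Ncam2 and L1cam, whose folds were below 1, have windows that are not printed. The Ncam2 window holds 2 GC boxes and 75.7% G and C, and the L1cam windows hold 1 and 2 boxes and 69.3 and 67.0%. A relation between these windows and the folds was not tested. The counts hold no measurement at these windows, and which start sites were in use is not resolved by them.

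**Figure D3:**
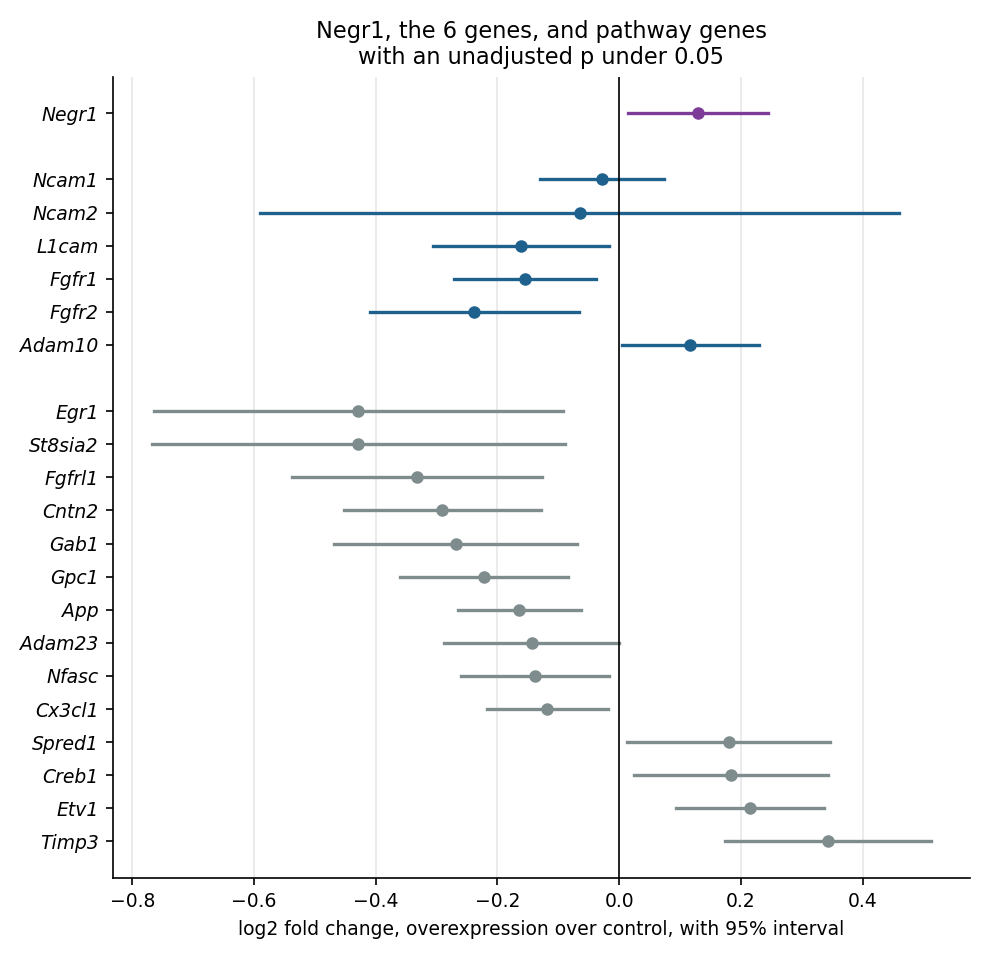
Log2 fold change of overexpression over control (horizontal axis) with its 95% interval, for Negr1, the 6 genes and the 14 pathway genes with an unadjusted p under 0.05. The interval of Ncam2 is the widest of the 6 genes, and those of L1cam, Fgfr1 and Fgfr2 lie below 0, at adjusted p-values of 0.412 or more.

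The levels of the 6 genes were also set against Negr1 across the 6 libraries, to see whether they went with it. Fgfr1 and Fgfr2 were lower where Negr1 was higher, with Pearson r = -0.91 (exact permutation p = 0.0139) and r = -0.90 (exact permutation p = 0.0278). Spearman's rho was -0.94 and -0.89 (exact permutation p = 0.0167 and 0.0333). Adjusted over the 6 relations, neither passed, at 0.0833 for both r and 0.1 for both rho. Without overexpression replicate 2 and control replicate 2, the libraries farthest from the Negr1 median, r was -0.98 and -0.99 over 4 libraries. The same omission gave -0.99 for L1cam, 0.94 for Adam10 and -0.83 for Ncam1. These relations, over 6 libraries or over 4, hold the group difference in them. After each group's mean was subtracted, an alternative added after the data were seen, r was -0.69 for Fgfr1 and -0.76 for Fgfr2. Within the 3 overexpression libraries r was -0.22 and -0.35, and within the 3 control libraries it was -0.9964 and -0.9955, as descriptions over 3 points each, and the difference between these values was not tested. Once the group means were subtracted, the sign turned for Adam10, to -0.32, and for Ncam1, to 0.37. L1cam was then at -0.047 and Ncam2 at -0.49. Over all 6 libraries r was 0.66 for Adam10, -0.58 for L1cam, -0.44 for Ncam2 and -0.38 for Ncam1 (adjusted exact permutation p = 0.317, 0.317, 0.457 and 0.514). In the same order rho was 0.66, -0.60, -0.37 and -0.60 (adjusted exact permutation p = 0.29, 0.29, 0.497 and 0.29). For Ncam2 r turned to 0.84 without the same pair of libraries, so its sign rested on them.

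**Figure D4:**
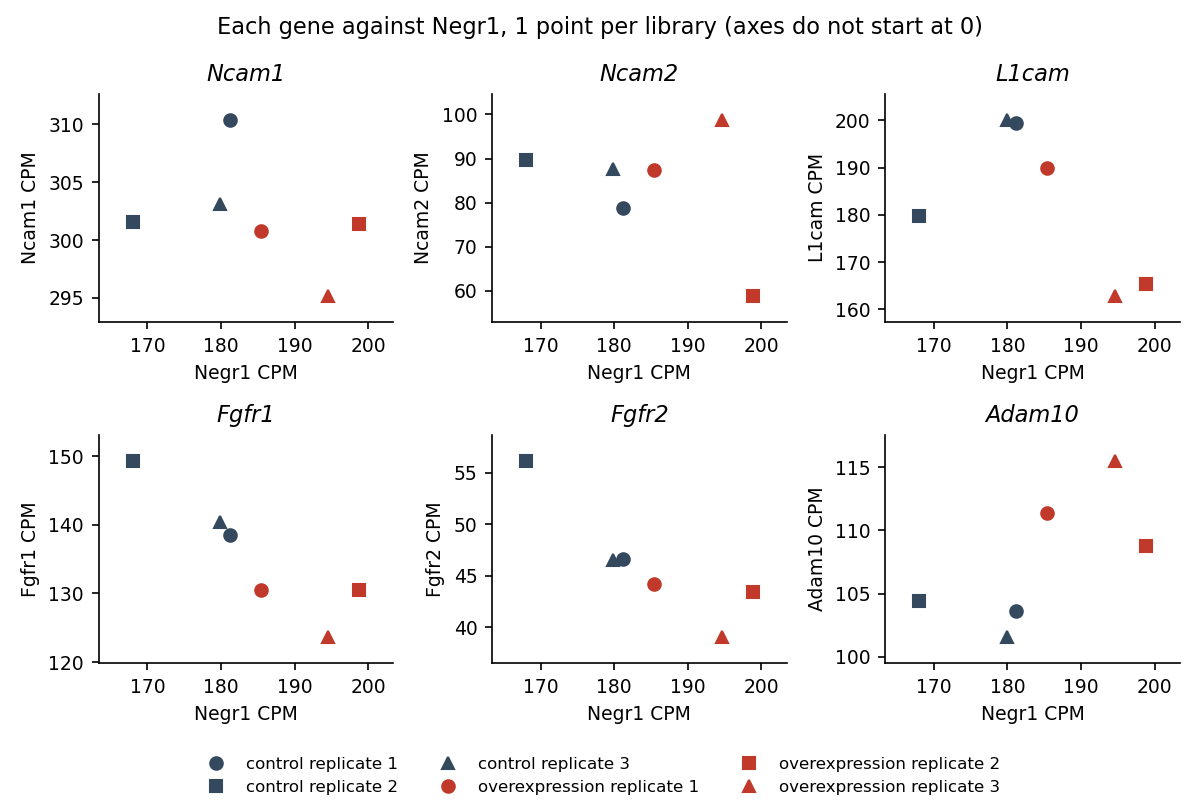
CPM of each of the 6 genes (vertical axes) against CPM of Negr1 (horizontal axes), with 1 marker per library and axes that do not start at 0. Over all 6 libraries Fgfr1 and Fgfr2 fall as Negr1 rises, with r of -0.91 and -0.90, which hold the group difference in them. Within the overexpression libraries r is -0.22 and -0.35. Control replicate 2 has the lowest Negr1, at 168 CPM.

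Among the 6 genes themselves, 15 pairs were compared across libraries and 0 passed after adjustment. These relations hold the group difference in them, and values within groups were not computed. Fgfr1 and Fgfr2 were most alike, with r = 0.97 (exact permutation p = 0.00833, adjusted 0.125) and rho = 0.94 (exact permutation p = 0.0167, adjusted 0.125). Without control replicate 2 and overexpression replicate 3, r was 0.97. The values of Adam10 were lower where those of the other genes but Ncam2 were higher. With Fgfr1 it had r = -0.86 (exact permutation p = 0.0278, adjusted 0.208) and rho = -0.77 (exact permutation p = 0.103, adjusted 0.255), and r was -0.97 without the same pair of libraries. By rank it ran most strongly against Ncam1, with rho = -0.94 (exact permutation p = 0.0167, adjusted 0.125) and r = -0.75 (exact permutation p = 0.0583, adjusted 0.219), or -0.92 without overexpression replicate 3 and control replicate 1. With L1cam rho was -0.83 (exact permutation p = 0.0583, adjusted 0.255) and r -0.72 (exact permutation p = 0.119, adjusted 0.299), or -0.35 without overexpression replicates 2 and 3, so that relation rested on those libraries. Ncam2 went with none of the others, with r between -0.33 and 0.19.

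Of 10205 other genes at 10 CPM or more, those closest to each of the 6 over the 6 libraries were Ap2s1 for Ncam1 (r = 0.993), Zup1 for Ncam2 (r = 0.9985) and Flii for L1cam (r = 0.996). For Fgfr1 it was Rtl8b (r = 0.998), for Fgfr2 Sufu (r = 0.991) and for Adam10 Brcc3 (r = 0.987). The next closest were Slc35b2, Mtmr2, Las1l, Thbs4, Mvd and Ccdc127 in the same order, with r of 0.985 to 0.993. These are descriptions over 6 points, and each of the 6 genes had 122 to 341 genes with r above 0.9. Zup1 shared the low value of overexpression replicate 2 seen in Ncam2, with 9.12 CPM there and 12.55 to 15.5 CPM in the other libraries.

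Around the 6 genes, 8 pathway lists with 125 different genes were examined. Of these genes 119 were tested and 0 passed (smallest edgeR adjusted p = 0.212). At an unadjusted p under 0.05 were 14, 4 higher and 10 lower, which is 11.8%, against 9.24% of all genes tested and 11.5% of those at 10 CPM or more. The median log2 fold change over the 119 was -0.0022.

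**Figure D5:**
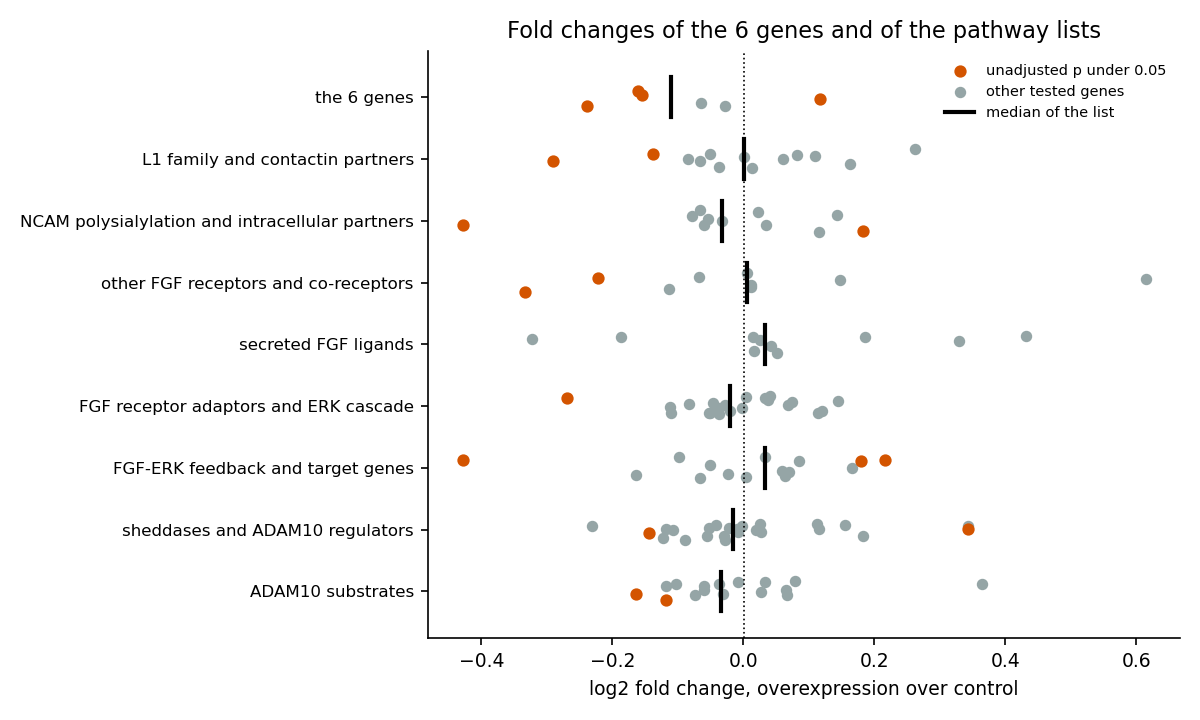
Log2 fold change of overexpression over control (horizontal axis) for each tested gene of the 8 pathway lists and for the 6 genes, with the median of each list as a black bar and that of all genes tested as a dotted line. List medians lie between -0.034 and 0.034, while that of the 6 genes is -0.11.

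In the L1 family and contactin list, 7 of 13 genes were above and 6 below a fold of 1 (median log2 fold change 0.00089), and 0 passed. The leading genes per length were Cntn1, a contactin that binds L1 family proteins, at 496 ± 17.3 against 492 ± 28.8 CPM, and Cntnap1, its partner beside the node of Ranvier, at 260.0 ± 9.15 against 276 ± 16.95 CPM. Cntn2 and Nfasc, which organise myelinated axons, were lower at an unadjusted p under 0.05. Cntn2 stood at 124 ± 13.9 against 151 ± 7.71 CPM (adjusted p = 0.269) and Nfasc at 354 ± 20.5 against 390.0 ± 16.8 CPM (adjusted p = 0.482), beside the myelin marker levels given above, whose part in these values was not tested.

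Polysialic acid, which weakens NCAM adhesion, is added by 2 enzymes. St8sia2, the enzyme of early development, was at 3.50 ± 0.0684 against 4.70 ± 0.739 CPM (edgeR adjusted p = 0.442, unadjusted p = 0.0170), with groups that did not overlap. St8sia4, the enzyme of the mature brain, was at 21.0 ± 1.77 against 19.4 ± 1.27 CPM (adjusted p = 0.716). Of the 11 tested NCAM partners 5 were above and 6 below 1 (median -0.032), 0 passed, and Gdnf had too few counts. Camk2a and Prnp led the list per length, at 4013 ± 137 against 4237 ± 168 CPM and at 838 ± 9.04 against 857 ± 18.1 CPM. Creb1, a transcription factor downstream of NCAM signalling, was at 74.9 ± 8.04 against 65.9 ± 2.93 CPM (adjusted p = 0.480, unadjusted p = 0.0273).

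Of 10 tested FGF ligand genes 8 were above and 2 below a fold of 1 (median 0.034), and 0 stood at an unadjusted p under 0.05. The most abundant per length were Fgf1, at 58.5 ± 4.05 against 57.9 ± 2.46 CPM, and Fgf10, at 17.7 ± 3.52 against 17.2 ± 1.24 CPM. Fgf8 and Fgf20 had a count of 0 in every library. Among the other receptors and co-receptors 5 of 9 were above 1 (median 0.0051) and 0 passed. Fgfr3, chosen for naming after its values were seen, was at 130.4 ± 11.03 against 129 ± 19.7 CPM (adjusted p = 0.986). Fgfrl1, a receptor without a kinase domain, was at 13.2 ± 0.151 against 16.6 ± 1.91 CPM, and Gpc1, a heparan sulfate co-receptor, at 104 ± 4.04 against 121 ± 9.91 CPM. Both had groups that did not overlap and an adjusted p of 0.340. Sdc3, the other leading heparan sulfate carrier, was at 223 ± 14.5 against 234 ± 12.3 CPM.

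Inside the cell, the 21 adaptors and kinases of the ERK cascade had 9 above and 12 below 1 (median -0.021), and 0 passed. Map2k1, a kinase of the cascade and among its most abundant genes per length, was at 252 ± 14.4 against 252 ± 17.2 CPM. Gab1, a docking protein of receptor tyrosine kinases, was at 29.2 ± 1.87 against 35.2 ± 4.85 CPM (edgeR adjusted p = 0.423, unadjusted p = 0.0125). Genes that respond to FGF and ERK signalling had 9 of 15 above 1 (median 0.033), and 0 passed. Etv1, an ETS factor, was at 162 ± 4.55 against 139 ± 8.11 CPM (adjusted p = 0.269) and Spred1, an inhibitor of RAS signalling, at 199 ± 24.6 against 176 ± 3.78 CPM (adjusted p = 0.503). Egr1, an immediate early gene, was at 81.1 ± 14.9 against 109 ± 10.8 CPM (adjusted p = 0.456), with groups that did not overlap. Spred2 was at 105 ± 3.14 against 109.6 ± 6.35 CPM.

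On the shedding side, 9 of 24 tested sheddases and regulators of ADAM10 were above and 15 below 1 (median -0.016), and 0 passed. Timp3, an inhibitor that binds ADAM10 and ADAM17, was at 86.4 ± 6.43 against 68.2 ± 6.97 CPM, a fold of 1.27 with a 95% interval of 1.13 to 1.43 (edgeR adjusted p = 0.212, unadjusted p = 7.6e-04). Vessel wall and meningeal cells also express Timp3: their marker lists had 5 of 7 genes above 1 (median 0.20) and 8 of 8 above 1 (median 0.64), summing to 329 to 420 against 284 to 379 TPM and 81.6 to 106 against 61.6 to 97.7 TPM. Their part in the Timp3 value was not tested. Timp2 and Cap2 led the list per length, at 362 ± 41.2 against 369 ± 32.3 CPM and at 199.9 ± 13.6 against 201 ± 12.5 CPM. Adam23, a relative of ADAM10 with no protease activity, was at 151 ± 5.99 against 167 ± 15.7 CPM (adjusted p = 0.540).

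The list of ADAM10 substrates had 6 of 16 tested genes above and 10 below 1 (median -0.034), and 0 passed. L1cam, Negr1 and Prnp, given above, were not part of this list. Within the list, App and Cx3cl1 were both the most abundant per length and the only ones at an unadjusted p under 0.05. App, the amyloid precursor protein, was at 1539 ± 28.4 against 1724 ± 43.3 CPM, a fold of 0.893 with a 95% interval of 0.832 to 0.958 (edgeR adjusted p = 0.340). Cx3cl1, the neuronal chemokine fractalkine, was at 435 ± 1.31 against 472 ± 6.67 CPM (adjusted p = 0.467). For both, each overexpression library lay below each control library.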

How the data were processed

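The authors deposited 1 table of raw read counts per Ensembl gene, matched to the 6 libraries by column name; of the sample columns, 0 were unused. Reads were handled with featureCounts 2.0.3, Trimmomatic 0.36 and STAR 2.7.10, and 2 builds (GRCm39, mm10) are listed, with no order stated, per the submitters' processing notes. Libraries were strand-specific, per the labels' protocols. Neither the annotation used for counting nor its strand setting is known from these sources, so reads shared with overlapping genes (the antisense Gm11149 and Gm16159 at Ncam1 and Fgfr1, Arhgap4 at L1cam, Ctbp2 at Fgfr2) could not be assigned here. Symbols matched 51948 of 56941 identifiers; the others held 0.264 to 0.348% of counts.

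Counts were fitted over all 19354 genes that passed edgeR's default filter, with edgeR 4.0.16 (TMM, robust quasi-likelihood, group as the only term) in R 4.3.3, and adjusted by Benjamini-Hochberg with a threshold of 0.05. Exact permutation tests used scipy 1.17.1. TPM used merged exon lengths of GENCODE M21, which covered 97.8% of genes tested. The mice are separate animals per the design text, and every pair of libraries differed by more than sampling noise. The 6 genes, the 8 pathway lists and the 10 cell marker lists were chosen with earlier results of these data known. Beside the 6 genes and Negr1, the text may name pathway genes with an unadjusted p under 0.05 and the 2 most abundant per length of a list, and the 2 genes most like each of the 6. Some genes that this rule names are not reported here. The alternatives were other scalings, filters and tests (DESeq2 1.42.0, limma 3.58.1), the replicate number as a block, a GC correction, a looser threshold of 0.1, and each library omitted in turn.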

Additional observations from a re-analysis of the deposited data

How the results depend on the processing

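Over 90 refits, 15 for each of the 6 genes, 0 gave an adjusted p under 0.05 and 89 kept the direction; the exception is Ncam2 without overexpression replicate 2, at a log2 fold change of 0.12. Leaving out 1 library at a time gave log2 fold changes of -0.037 to -0.012 for Ncam1, -0.22 to 0.12 for Ncam2, -0.24 to -0.12 for L1cam, -0.17 to -0.12 for Fgfr1, -0.28 to -0.14 for Fgfr2 and 0.096 to 0.14 for Adam10. Fgfr2 came nearest to the threshold with no filter on low counts (adjusted p = 0.0714). After the GC correction Ncam2 was at -0.15. The number of genes called moved more: 103 by DESeq2, 2 by limma-voom with sample weights, 304 with no filter, 5 at 1 CPM in 3 libraries, 19 at an adjusted p of 0.1, and 2 to 63 without 1 library. The cause was not tested. With the replicate number as a block it was 26, and 28 with the GC correction added. Same-numbered libraries did not deviate together (correlations of 0.016, -0.047 and -0.016). No pairing of the mice is stated, and these correlations, which were not tested, cannot exclude one. With 3 mice per group the 95% intervals allow for changes of -33.6 to 37.6% in Ncam2, and of -8.60 to 5.22% in Ncam1.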
